A study of Mus musculus with 6 samples.

Results

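Alpha and beta tubulin isotypes were followed in hind limb skeletal muscle of laminin alpha 2 chain deficient mice and wild type mice, all 4 weeks old, with 3 mice in each group. Members were 10 named tubulin genes (Tuba1a, Tuba1b, Tuba1c, Tuba4a, Tuba8, Tubb2a, Tubb2b, Tubb3, Tubb5 and Tubb6), and every probe set annotated to exactly 1 of them was taken. This gave 14 of the 45101 probe sets on the array, covering 8 of the 10 genes, among 18193 genes with a probe set of their own. All hind limb muscle of a mouse was taken, RNA of each mouse was read on 1 Affymetrix array, and the sources used here give no laminin allele, strain or sex. Each probe set has 1 linear signal value per array in the authors' table. Laminin alpha 2 is a chain of the laminin that ties the muscle fibre to its basement membrane. Its gene Lama2 read 82, 31.1 and 140.4 in deficient muscle and 428.7, 415.6 and 326.2 in wild type muscle.

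Alpha and beta tubulin form the dimers from which microtubules are built, and mammals encode each of them in several genes whose products, the isotypes, differ mostly at their C-terminal tails. In muscle fibres microtubules run as a lattice under the fibre membrane and around the nuclei, where they carry cargo and position organelles. Tuba8 and Tuba4a are found in mature muscle, Tubb6 is known from regenerating and dystrophin-deficient muscle of mice, Tubb5 and the Tuba1 genes are broadly expressed, and Tubb2a, Tubb2b and Tubb3 are best known from neurons.

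Tuba8 fell in deficient muscle, and the beta isotypes Tubb2b and Tubb6 rose. A gene was called at an adjusted p under 0.05 from limma, a linear model fitted over all 13105 genes tested, each read by its brightest probe set. Of the 7 tubulin genes tested, 2 rose, 1 fell and 4 did not pass, where 2.76% of all genes tested were called (1.3% higher and 1.47% lower). The 4 that did not pass were Tubb2a, Tubb5 and Tuba1a, with positive fold changes, and Tuba4a, with a negative one. Each of the 3 calls was lost when certain single arrays were left out. Tubb6 also did not pass in the fit over all probe sets (limma adjusted p = 0.0516). The groups did not overlap in 3 of the 7, as held for 24.7% of all genes tested. Tubb3 was not tested, since its probe set lay below the filter on dim probe sets (about 13.97 signal units). Tuba1b and Tuba1c had no probe set of their own. Each log2 fold change is the deficient mean less the wild type mean of log2(signal + 16), a scale that makes changes of dim genes look smaller, and signals of different probe sets cannot be ranked against each other.

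**Figure D1:**
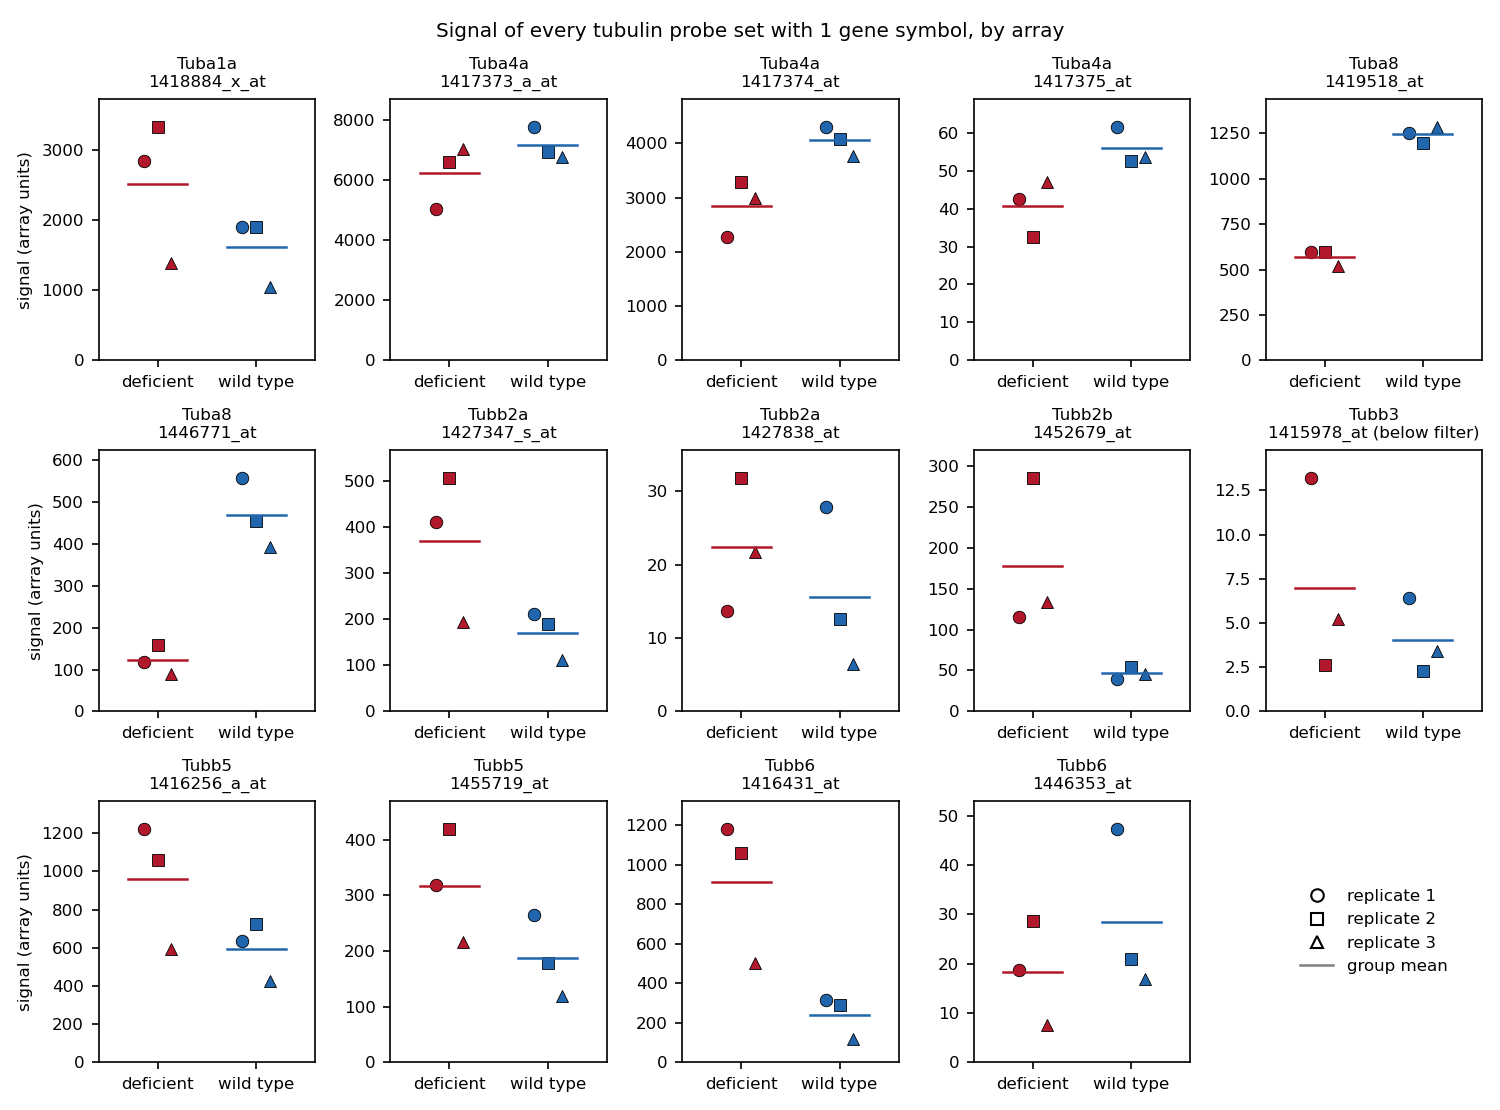
Signal of the 14 probe sets annotated to 1 tubulin gene, 1 panel each with its own linear axis from 0; points are arrays, with a marker shape for each replicate number, and lines are group means (n = 3 each). Tuba8 lies between 517.9 and 598.4 in deficient muscle, below every wild type array on its brightest probe set, while Tubb6 on its brightest probe set lies above every wild type array.

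Among the alpha isotypes, Tuba8 had the clearest difference. Its brightest probe set (1419518_at) read 597.2, 598.4 and 517.9 in deficient muscle, against 1253.4, 1194.4 and 1284.5 in wild type muscle. The 3 arrays of each group lay close together and far from the other group. The means were 571 ± 46.1 in deficient and 1244 ± 45.8 in wild type muscle (SD, n = 3 each), a ratio of 0.459. The log2 fold change was -1.10 (SE 0.16, 95% interval -1.45 to -0.75, limma adjusted p = 0.00986). The second Tuba8 probe set (1446771_at) read 119, 157.6 and 90 in deficient muscle, against 557.9, 454.3 and 392.3 in wild type muscle. It fell as well, with a log2 fold change of -1.82 (SE 0.24, limma adjusted p = 0.00894 over the 27003 probe sets tested). The gene call was lost without wild type replicate 1 (limma adjusted p = 0.0633) and without wild type replicate 2 (0.0553). With those arrays left out, 0.496% and 0.542% of all genes tested passed. Under the alternatives with at least 2 arrays per group the adjusted p lay between 0.00184 and 0.0633 and the log2 fold change between -1.46 and -1.04.

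Markers of mature muscle served as a check of the tissue beside Tuba8. The 12 listed genes, such as the fast troponin genes Tnnt3 and Tnni2, were all tested, and 0 rose and 0 fell by limma. An unadjusted p under 0.05 was found for 2 of them, or 16.7%, near the 18.9% of all genes tested. The groups did not overlap in 4 of the 12, Mb, Tnnt3, Pvalb and Ckm, all lower in deficient muscle. That held for 24.7% of all genes tested. The median log2 fold change of the 12 was -0.15, with 10 of 12 below 0. Their summed signal was 98302.5, 129730.4 and 128894.4 in deficient muscle, against 132186.8, 129027.2 and 131520.3 in wild type muscle. In this sum deficient replicate 1 was the low array, and the other deficient arrays lay near the wild type level. None of them was listed at 0 on any array. In whole muscle, fewer cells of a type and less RNA per cell cannot be told apart.

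RefSeq promoters (GRCm38.p6) were matched for 8 of the 10 members by symbol, and those of Tubb2b and Tubb6 were not matched. The 250 bases before the start are shown for Tuba8, the member that fell, and for Tubb2a, the matched beta gene with the highest fold change, which did not pass the test. Both are written 5′ to 3′ on the gene's strand, Tuba8 from chr6:121210484-121210733 (+) and Tubb2a from chr13:34078009-34078258 (-). Capitals mark motif matches, searched on both strands and not overlapping each other here. The motifs were the TATA box, spelled TATAAA, the CCAAT box, spelled by its name, and the E-box, spelled CANNTG.
Tuba8: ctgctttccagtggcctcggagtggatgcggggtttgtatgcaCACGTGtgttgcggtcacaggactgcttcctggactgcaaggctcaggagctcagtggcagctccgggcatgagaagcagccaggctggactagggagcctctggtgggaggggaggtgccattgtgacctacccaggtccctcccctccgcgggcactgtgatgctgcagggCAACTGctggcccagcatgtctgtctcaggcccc
Tubb2a: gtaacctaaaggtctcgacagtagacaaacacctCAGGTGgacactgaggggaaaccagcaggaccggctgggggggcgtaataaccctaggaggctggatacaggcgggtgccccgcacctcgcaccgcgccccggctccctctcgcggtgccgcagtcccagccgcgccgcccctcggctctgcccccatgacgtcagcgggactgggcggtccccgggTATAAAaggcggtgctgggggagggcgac
The Tuba8 window held 2 E-box matches, starting 207 and 34 bases before the start, and neither of the other motifs. The Tubb2a window held a TATA box match 29 bases and an E-box match 216 bases before the start. Of the 8 matched members, 7 held an E-box match, 4 a CCAAT box match and 1 a TATA box match. Over 32851 RefSeq promoters of the same length the shares were 66.2% for the E-box, 33.8% for the CCAAT box and 12.4% for the TATA box. A match is a description of letters and not a binding site.

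Tuba4a, an isotype that lacks an encoded C-terminal tyrosine, had 3 probe sets, all with negative fold changes and 0 called, with 1 at an unadjusted p under 0.05. The brightest (1417373_a_at) read 5032.5, 6617.9 and 7031.3 in deficient muscle, against 7769.8, 6935.1 and 6770.3 in wild type muscle. Those ranges overlapped, with deficient replicate 1 the lowest array. The log2 fold change was -0.21 (95% interval -0.55 to 0.13, limma adjusted p = 0.484), and it was -0.067 without deficient replicate 1 and -0.36 with the mean of the 3 probe sets. On the second (1417374_at) the groups did not overlap, with 2273.2, 3284.6 and 3000.8 in deficient and 4304.9, 4086.2 and 3773.7 in wild type muscle. Its log2 fold change was -0.52 (95% interval -0.89 to -0.15, limma adjusted p = 0.16 over all probe sets). The dimmest (1417375_at) read 42.5, 32.5 and 47 in deficient and 61.5, 52.5 and 53.6 in wild type muscle, again without overlap (limma adjusted p = 0.47 over all probe sets).

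The Tuba1 genes neighbour each other in RefSeq and are close copies, so their probe sets can share target sequence. Tuba1a was read by 1418884_x_at, where the suffix marks probes that also match other sequences. It read 2844.9, 3325.9 and 1382.5 in deficient muscle, against 1900.8, 1893.4 and 1048.7 in wild type muscle. Deficient replicate 3 lay below wild type replicates 1 and 2, so the groups overlapped. The log2 fold change was 0.59 (95% interval -0.16 to 1.35, limma adjusted p = 0.378). Leaving out deficient replicate 3 gave 0.97, deficient replicate 2 gave 0.35 and wild type replicate 3 gave 0.31, and none of these passed.

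Another 5 probe sets carry a member's symbol together with that of another gene, so they were not assigned to a member, and 3 of them passed the filter. The brightest, annotated to Tuba1b and the predicted gene Gm5620 (1423846_x_at), read 4151, 4532.1 and 2488.5 in deficient muscle, against 2611.9, 2507.4 and 1839.8 in wild type muscle. It had a log2 fold change of 0.65 (95% interval 0.12 to 1.17, limma adjusted p = 0.213 over all probe sets). Like Tuba1a it was lowest in replicate 3 of both groups. The pair annotated to Tuba1c and Gm6682 read 121.3, 166.5 and 187.1 on 1448232_x_at and 52, 87.9 and 80.7 on 1416128_at in deficient muscle. In wild type muscle they read 165.6, 76.5 and 106.6 on 1448232_x_at and 63.1, 55.7 and 58.1 on 1416128_at. Neither passed (limma adjusted p = 0.477 and 0.664 over all probe sets). The remaining 2, annotated to Tuba1a with Gm6682 and to Tubb2b with the pseudogene Tubb2a-ps2, stayed below the filter.

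Among the beta isotypes, Tubb6 and Tubb2b rose by similar ratios, and which had the larger fold change depended on the scale and on the arrays and probe sets used. Its brightest probe set (1416431_at) read 1179.8, 1057.4 and 502.8 in deficient muscle, against 315.4, 292.1 and 116.1 in wild type muscle. Every deficient array lay above every wild type array, and replicate 3 was the lowest in both groups. The means were 913 ± 361 in deficient and 241 ± 109 in wild type muscle (SD, n = 3 each), a ratio of 3.79. The log2 fold change was 1.88 (SE 0.40, 95% interval 0.98 to 2.77, limma adjusted p = 0.0423). Adjusted over all probe sets, the same probe set did not pass (limma adjusted p = 0.0516). The second Tubb6 probe set (1446353_at) was dim and differed in sign, with 18.7, 28.6 and 7.6 in deficient and 47.3, 21 and 16.8 in wild type muscle (log2 fold change -0.36, limma adjusted p = 0.648 over all probe sets). The Tubb6 call was lost without 5 of the 6 arrays, with limma adjusted p of 0.115 and 0.167 when deficient replicates 1 and 2 were left out, and of 0.0996, 0.0901 and 0.0794 when wild type replicates 1, 2 and 3 were. It was also lost under median centring (0.073), without the filter (0.0653), without an intensity trend (0.0729), with a robust prior (0.0575) and with the mean of both probe sets (0.277). Across those with at least 2 arrays per group Tubb6 had an adjusted p between 0.000107 and 0.277 and a log2 fold change between 0.76 and 2.25.

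Tubb2b, whose gene neighbours Tubb2a, was read by 1 probe set (1452679_at), with 115.3, 285.1 and 133.3 in deficient muscle, against 39.8, 54 and 45.2 in wild type muscle. The groups did not overlap, the wild type arrays lay close together, and deficient replicate 2 stood well above the other deficient arrays. Means were 178 ± 93.3 in deficient and 46.3 ± 7.17 in wild type muscle (SD, n = 3 each), a ratio of 3.84. The log2 fold change was 1.54 (SE 0.30, 95% interval 0.86 to 2.22, limma adjusted p = 0.0324). The call was lost without wild type replicate 1 (limma adjusted p = 0.135), 2 (0.0901) or 3 (0.0772) and without deficient replicate 2 (0.074). It was lost too without the filter (0.058) and without an intensity trend (0.0549). With at least 2 arrays per group, its adjusted p ranged between 0.00572 and 0.135 and its log2 fold change between 1.17 and 1.81.

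Tubb2a did not pass. Its brightest probe set (1427347_s_at, a suffix for probes shared by several transcripts) read 410.3, 506.2 and 193.2 in deficient muscle, against 210.2, 190.1 and 110.4 in wild type muscle. Deficient replicate 3 fell inside the wild type range, and the other 2 deficient arrays lay above it. The log2 fold change was 0.99 (95% interval 0.21 to 1.78, limma adjusted p = 0.164), and it was 1.39 and past the threshold without deficient replicate 3 (limma adjusted p = 0.0203; 0.00842 to 0.399 over the alternatives with at least 2 arrays per group). A dim second probe set (1427838_at) read 13.7, 31.8 and 21.7 in deficient and 27.8, 12.6 and 6.4 in wild type muscle, with overlap (limma adjusted p = 0.677 over all probe sets).

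Tubb5, a broadly expressed beta isotype, had 2 probe sets that went the same way without passing. The brighter (1416256_a_at) read 1221.9, 1061.7 and 594.5 in deficient muscle, against 637.1, 725.8 and 424 in wild type muscle. Its log2 fold change was 0.64 (95% interval -0.0082 to 1.30, limma adjusted p = 0.272). The other (1455719_at) read 318.2, 419.4 and 215.5 in deficient and 264.5, 178 and 119.8 in wild type muscle, a log2 fold change of 0.73 (limma adjusted p = 0.281 over all probe sets). On both, deficient replicate 3 lay among the wild type arrays. Without that array the gene passed, with a log2 fold change of 0.95 (limma adjusted p = 0.0479; 0.0273 to 0.529 over the same alternatives). Tubb3, the neuronal isotype, stayed at 13.2, 2.6 and 5.2 in deficient and 6.4, 2.3 and 3.4 in wild type muscle, and no fold change is given for it.

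**Figure D2:**
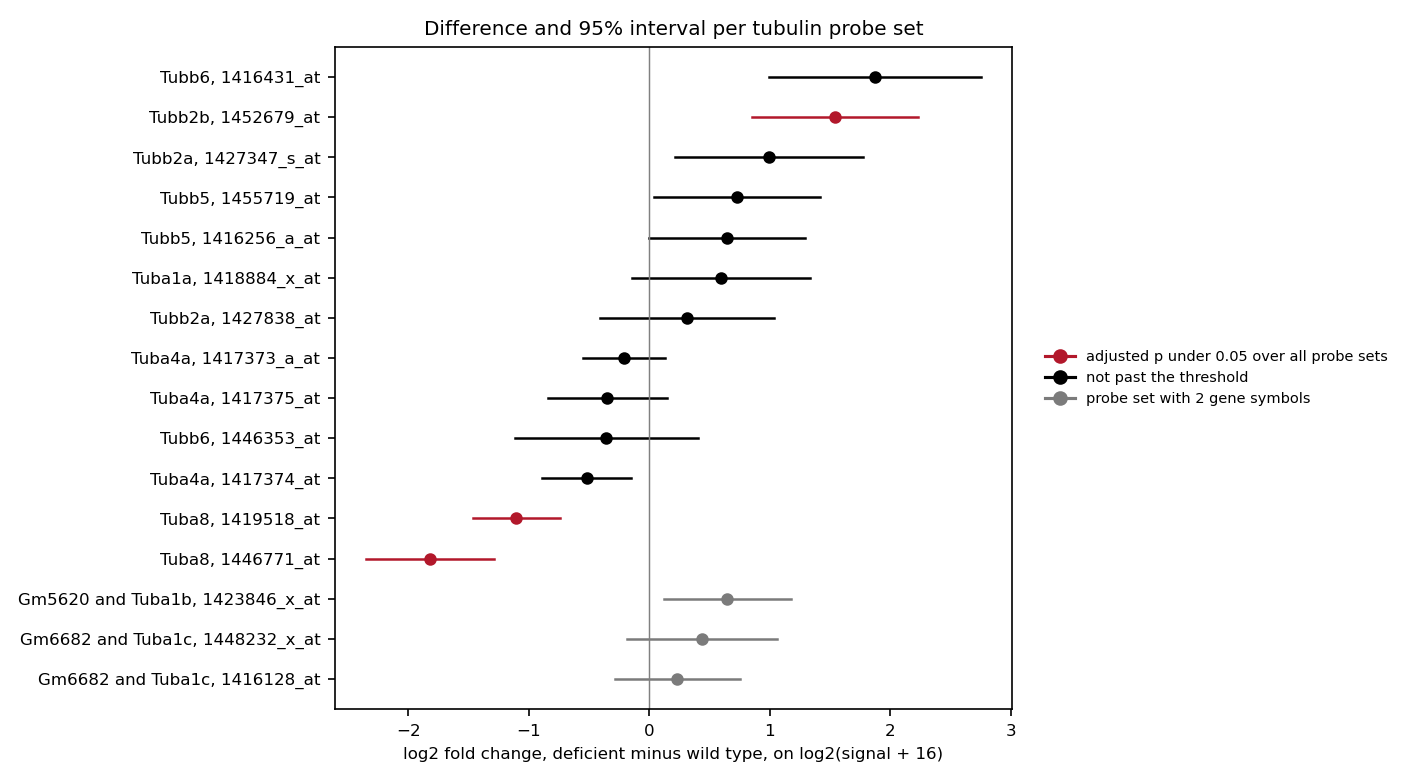
Log2 fold change (deficient minus wild type, points) with its 95% interval (lines) for the 13 probe sets of tubulin genes past the filter and 3 probe sets with 2 gene symbols in grey, from the fit over all probe sets. The Tuba8 probe sets stand at -1.10 and -1.82, and Tubb2b at 1.54, in red; Tubb6 at 1.88 has an adjusted p of 0.0516 in this fit.

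Over the 13 probe sets past the filter, 1 rose, 2 fell and 10 did not pass, where 1.42% of all probe sets were called. The groups did not overlap in 6 of the 13, against 21.8% of all probe sets. Replicate 3 was the lowest array of the deficient group in 8 and of the wild type group in 10 of the 13, and of both in 7. Those are 61.5%, 76.9% and 53.8%, where over all probe sets tested the shares were 33.9%, 30.9% and 15.5%. Several of the 13 share a gene. That comparison was chosen after the values were seen.

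Replicate 3 of both groups also differed from the rest in Y-linked RNA. Eif2s3y read 414.6, 573.7 and 9.1 in deficient and 474.1, 466.8 and 10.7 in wild type muscle. Each group thus holds 2 arrays with this transcript and 1 near background. The tubulin differences were therefore also taken within each kind of array, where the kind with low Eif2s3y has only 1 array per group and no test. Tuba8 differed by -1.01 on the log2 scale among the arrays with Eif2s3y and by -1.28 among those without. Tubb6 differed by 1.83 with and 1.97 without, Tubb2b by 1.67 with and 1.29 without, and Tubb2a by 1.13 with and 0.73 without. For Tubb5 the differences were 0.73 with and 0.47 without, and for Tuba1a 0.69 with and 0.39 without. The sign was the same in both kinds of array for 12 of the 13 probe sets, the exception being the brightest of Tuba4a (-0.35 with, 0.05 without). No share over all probe sets was taken to set beside this count, and several of the 13 share a gene. The count is therefore a description only. With Eif2s3y as a block in limma, 6 of the 7 tubulin genes passed, where 8.84% of all genes tested were called. Tubb2a (limma adjusted p = 0.00842), Tuba1a (0.0268) and Tubb5 (0.0273) were added, and Tuba4a did not pass.

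**Figure D3:**
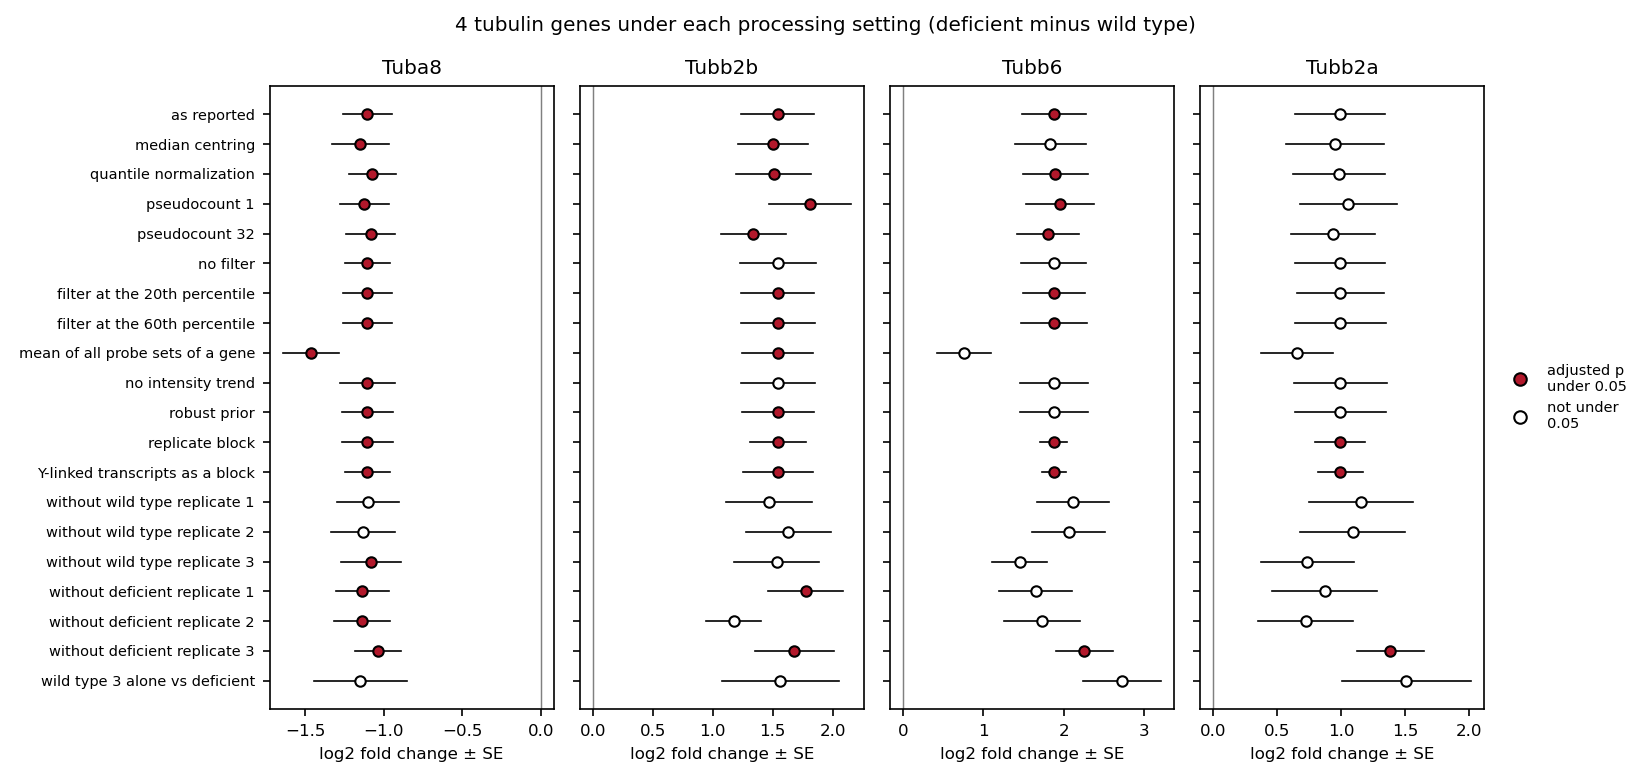
Log2 fold change (deficient minus wild type) with its SE for Tuba8, Tubb2b, Tubb6 and Tubb2a under each processing setting, filled in red where the adjusted p is under 0.05. Every value of Tuba8 is below 0 and every value of the beta isotypes shown is above 0. A changed filter, trend, prior or block leaves the value itself unmoved and changes only its SE or adjusted p. The calls of all 4 genes, Tuba8 included, change when single arrays are left out.

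Some markers of regenerating fibres, macrophages, fibroblasts and hair follicles also differed between the groups, in both directions. Their part in these results was not tested. Of 10 markers of regenerating fibres, 6 rose, among them Myh3, the embryonic myosin gene, and Mymx, which acts in myoblast fusion, 1 fell (Actc1) and 3 did not pass. The log2 fold changes were 4.44 for Myh3, 3.34 for Mymx and -1.29 for Actc1, the cardiac actin gene (limma adjusted p = 0.00063, 0.00107 and 0.0282). Their median log2 fold change was 1.77, and their summed signal, in which Actc1 was high, ran from 6879.2 to 10611.6 in deficient and from 6040.5 to 12253.3 in wild type muscle. Of 12 macrophage markers, 1 rose (Mpeg1, log2 fold change 2.78, limma adjusted p = 0.00231), 0 fell and 11 did not pass, with 12 of 12 fold changes above 0. Their summed signal was 11671.2, 8330.5 and 4144.5 in deficient muscle, against 4199.3, 3408.8 and 2959.5 in wild type muscle. It was lowest in replicate 3 of both groups, as were 19.5% of all genes tested. Of 10 fibroblast markers, 1 rose (Postn, log2 fold change 2.17, limma adjusted p = 0.0216), 0 fell and 9 did not pass, and their sum ran from 30712.1 to 43442.6 in deficient and from 21134 to 36068.5 in wild type muscle. Hair follicle markers summed to 117.5, 177.8 and 131.8 in deficient and to 3089.3, 1271.2 and 202.8 in wild type muscle, so wild type replicates 1 and 2 carried most of this signal. Of 11 tested, 0 rose, 1 fell (Tchh, log2 fold change -2.95, limma adjusted p = 0.0482) and 10 did not pass. The share of markers with an unadjusted limma p under 0.05 was 100% for regenerating fibres and 66.7% for macrophages. For fibroblasts it was 30% and for hair follicles 81.8%, where it was 18.9% over all genes tested. No gene of these lists was listed at 0 on any array. With wild type replicate 3 as the only wild type array, where the spread comes from the deficient arrays alone, 0 tubulin genes passed. Only 0.145% of all genes tested passed under that setting, so its adjusted p is not used for the ranges of adjusted p given for single genes. Log2 fold changes in this setting were -1.15 for Tuba8, 2.73 for Tubb6, 1.56 for Tubb2b and 1.51 for Tubb2a. For Tuba1a, Tubb5 and Tuba4a they were 1.16, 1.09 and -0.135. These values rest on 1 wild type array, with a hair follicle sum of 202.8, and the part of that signal was not tested. Wild type replicate 3 is also near background for Eif2s3y, while 2 of the deficient arrays carry it. Against deficient replicate 3 alone the differences were -1.28 for Tuba8, 1.97 for Tubb6 and 1.29 for Tubb2b. For the actin RNA quality control, the signal of the 5 prime probe set divided by that of the 3 prime one was 0.819, 0.51 and 0.573 in deficient and 1.15, 1.05 and 1.04 in wild type muscle, without overlap. For the Gapdh control the ratios overlapped, with 1.15, 0.886 and 1.01 in deficient and 0.961, 1.19 and 1.14 in wild type muscle. The transferrin receptor control overlapped too, with 0.214, 0.0617 and 0.0669 in deficient and 0.134, 0.241 and 0.128 in wild type muscle. So did the pyruvate carboxylase control, with 0.0597, 0.0881 and 0.192 in deficient and 0.0357, 0.242 and 0.125 in wild type muscle. Their part in the results was not tested either.

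Other genes of the microtubule system were read from 8 lists of tubulin relatives, folding factors, modifying enzymes, associated proteins, destabilisers, motors and nucleation factors. Of 129 genes tested, 1 rose, 0 fell and 128 did not pass. An unadjusted p under 0.05 was found for 15 of the 129 (11.6%), below the share of 18.9% of all genes tested, against which the counts of single lists should be read. Their median log2 fold change was 0.01, beside 0.02 for all genes tested and 0.64 for the 7 tubulin genes.

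Dclk1, which encodes a doublecortin-like kinase that binds microtubules, was the gene that rose. It read 617.3, 967.4 and 292.3 in deficient muscle, against 108, 121.9 and 57.1 in wild type muscle. The groups did not overlap, and replicate 3 was the lowest in both, as held for 19.5% of all genes tested. Its log2 fold change was 2.42 (SE 0.40, limma adjusted p = 0.0187), and 7 of its 8 probe sets had a positive fold change, 4 of them past the threshold over all probe sets. The call was lost without wild type replicate 1 (limma adjusted p = 0.0749) or 2 (0.0527) and without deficient replicate 1 (0.0618) or 2 (0.0694), and its adjusted p lay between 0.000162 and 0.0749 over the alternatives with at least 2 arrays per group. With the mean of all probe sets the log2 fold change was 1.28 (limma adjusted p = 0.0274), the lowest of these alternatives, and it was 2.87 without deficient replicate 3, the highest.

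The other tubulin genes, none of which passed, all had negative fold changes on the probe set read for each gene, as did 6220 of all 13105 genes tested. However, 1 of the 3 probe sets of Tubb4b stood at 0.067. Tube1, Tubb1 and Tubb4a were dim and their groups overlapped. Their means were 14.5, 25.1 and 29 in deficient and 25.6, 28.4 and 31.1 in wild type muscle. Of the 6 tested, 1 (16.7%) had an unadjusted p under 0.05. Tubg1, the gamma tubulin from which microtubules are nucleated, read 111.7, 110.3 and 57.5 in deficient and 153.8, 162.1 and 153 in wild type muscle, without overlap (log2 fold change -0.70, limma adjusted p = 0.157). Tubb4b, a widely expressed beta isotype, read 1031.2, 1028.2 and 885.9 in deficient and 1313.2, 1344.1 and 918.5 in wild type muscle, with overlap (log2 fold change -0.26, limma adjusted p = 0.497).

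Among 15 genes of tubulin modification, 0 passed by limma and 4 (26.7%) had an unadjusted p under 0.05. Vash2, a carboxypeptidase that removes the C-terminal tyrosine of alpha tubulin, read 98.7, 141.1 and 85.2 in deficient and 51.7, 57.4 and 25.4 in wild type muscle (log2 fold change 1.05, limma adjusted p = 0.077). All deficient arrays lay above all wild type arrays for this gene. Its binding partner Svbp, named after its values were seen, read 548.2, 673 and 427 in deficient and 405.4, 299.3 and 320 in wild type muscle (log2 fold change 0.65, limma adjusted p = 0.143). Neither passed the test.

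Among 21 folding genes, 0 passed by limma, 2 (9.52%) had an unadjusted p under 0.05, and 13 had a positive fold change. The smallest p was that of the prefoldin gene Pfdn1, which went the other way (log2 fold change -0.82, limma adjusted p = 0.114). Among 16 kinesin genes, 0 passed, 2 (12.5%) had an unadjusted p under 0.05, and 10 had a positive fold change. The smallest p was that of Kif21a (log2 fold change -0.82, limma adjusted p = 0.139), whose other probe set stood at 0.11. Among 18 dynein and dynactin genes, 0 passed and 1 (5.56%) had an unadjusted p under 0.05, the dynein heavy chain gene Dync1h1. It read 583.8, 590.7 and 1312.7 in deficient and 409.8, 301 and 411.8 in wild type muscle (log2 fold change 1.02, limma adjusted p = 0.11). Destabilisers and nucleation factors had 9 and 13 genes tested, with 0 passed by limma in each and 0 at an unadjusted p under 0.05. Their smallest p values were those of Kif2a (0.36, limma adjusted p = 0.303) and of Syne1 (0.61, limma adjusted p = 0.329), where 1 of 3 Syne1 probe sets went that way.

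**Figure D4:**
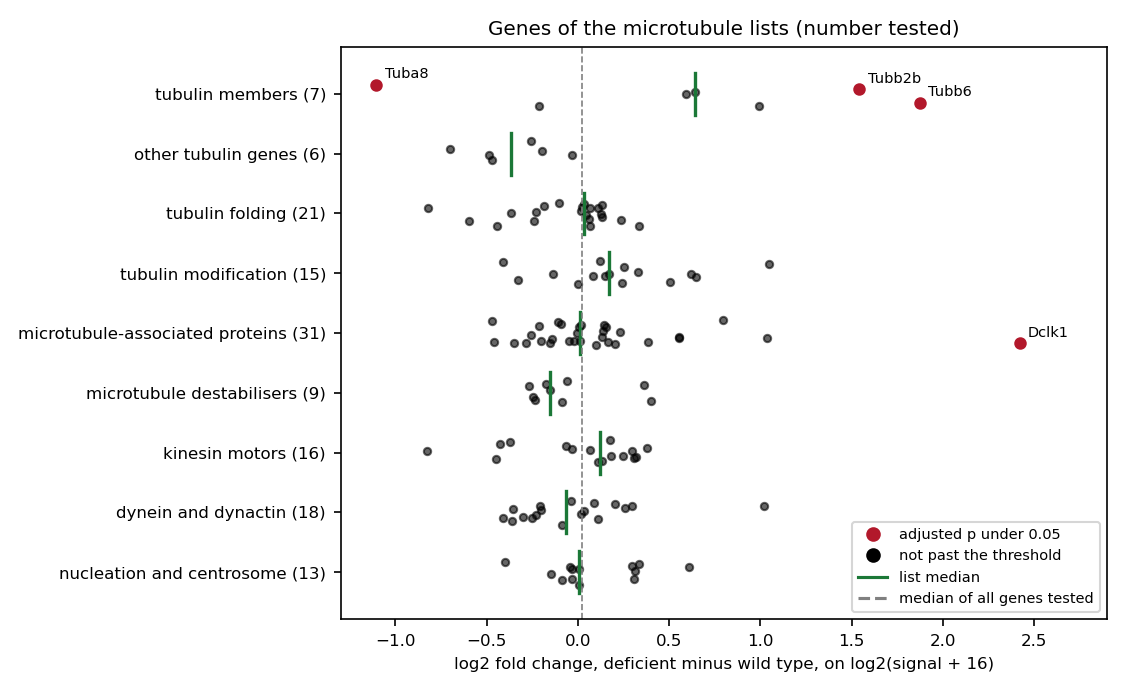
Log2 fold change (deficient minus wild type) of each gene tested in the tubulin list and the 8 other microtubule lists, with genes past the threshold in red, list medians in green and the median of all genes tested as a dashed line. Called genes are Tuba8, Tubb2b, Tubb6 and Dclk1. The 6 other tubulin genes, some of them dim and none called, lie below 0 by the probe set read for each, as do 6220 of all 13105 genes tested.

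Likeness of profile was measured as the mean absolute difference over the 6 arrays of log2(signal + 16), centred on each gene's own mean. The genes most like Tuba8 were Sirt4 (0.0429), Acyp2 (0.0499), Rpl3l (0.0684), Acyp1 (0.0746) and Mlf1 (0.075). Sirt4 averaged 28.4 in deficient and 76.3 in wild type muscle, dim enough that the added 16 shrinks its difference, so its first place depends on that scale. Rpl3l, a ribosomal protein gene of striated muscle, averaged 1852 ± 77.7 in deficient and 3903 ± 290 in wild type muscle (SD, n = 3 each). The same was done for Tuba4a, chosen among the members that did not pass for the highest signal of its probe set, which does not rank its RNA level. Nearest to it were E130317F20Rik (0.0138), Sucla2 (0.0241), Aldoa (0.0353), Atp2a1 (0.0371) and Cdip1 (0.0378). E130317F20Rik averaged 12.6 in deficient and 16.5 in wild type muscle, close to the filter, where the added 16 flattens a profile, so its place says little. Atp2a1, the calcium pump gene of fast fibres, averaged 10505 ± 1649 in deficient and 12191 ± 681 in wild type muscle. No other tubulin gene was among the 5 genes nearest to either.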

How the data were processed

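RNA of each of 6 mice was hybridised to 1 Affymetrix array from biotinylated cRNA, per the labels. The authors deposited 1 linear intensity for each probe set on each array, and every array has a mean of 100 without its lowest and highest 2%. No source used here names the summarising algorithm. Groups and replicate numbers came from the titles. Values were taken as log2(signal + 16), with array medians within 0.226 of each other. Probe sets under the 40th percentile of mean log2 signal were left out. Symbols came from GEO's platform annotation, updated to RefSeq (GRCm38.p6) by Entrez identifier for 34741 probe sets. Of the probe sets, 34945 had 1 symbol, 932 several, 9160 none and 64 were controls. limma 3.58.1 in R 4.3.3 was fitted with an intensity trend, two-sided, over 13105 genes and over 27003 probe sets, with Benjamini-Hochberg adjustment. Steps were tested on simulated data. The number of arrays limits precision.

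The members and lists were chosen with earlier results of these data known. Every member was named, with the genes of smallest p in each list and the 5 genes of most similar profile. Alternatives were other scalings, pseudocounts, filters, priors and uses of probe sets, a block for replicate number or Eif2s3y (signal above 100), and each array left out. Figures were drawn with matplotlib. Same-numbered arrays correlated at 0.15, 0.0688 and 0.301 in their deviations from the group means. The other pairs ran from -0.292 to 0.2, highest for deficient replicate 1 with wild type replicate 2. Those of replicate 3 with replicate 1 or 2 were all negative. The labels do not pair the arrays, and the main fit used no block. Eif2s3y as a block moved the count over all genes to 1159 from 362, so the calls depend on this choice.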

Additional observations from a re-analysis of the deposited data

How the results depend on the processing

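The sign of the log2 fold change of each of the 7 tubulin genes held under all alternatives run. A changed filter, trend, prior or block left these fold changes as they were, so only the other alternatives could have changed a sign. In 105 of 133 combinations of gene and alternative the side of the threshold held too. The number of tubulin genes called, 3 as reported, was 1 without a filter, 1 without an intensity trend and 6 with Y-linked transcripts as a block, and it ran from 0 to 5 with 1 array left out. The 3 tubulin probe sets called became 1 without an intensity trend and 7 with Y-linked transcripts as a block, and ran from 0 to 5 with 1 array left out. The count of 1 other microtubule gene became 2 with a filter at the 60th percentile and 5 with Y-linked transcripts as a block, and ran from 0 to 3 with 1 array left out. With wild type replicate 3 as the only wild type array, an alternative added after seeing the data in which that array is assumed to vary like the deficient arrays, these counts were 0, 0 and 0, where 19 of all genes tested (0.145%) passed. With the replicate number as a block, 5 tubulin genes, 5 tubulin probe sets and 5 other microtubule genes were called, against 3, 3 and 1 without it. The block moved the count over all genes to 864 from 362, the count was 214 without a filter, 173 without a trend and 1159 with Y-linked transcripts as a block, and it ran from 65 to 677 with 1 array left out. The causes were not tested. Probe sets of the Tuba1 and Tubb2 genes may read RNA of their close copies.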

Other observations

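Mitotic genes, whose products drive the spindle, were read beside Tubb5. Of 17 tested, 0 rose and 0 fell by limma, with a positive fold change in 13 and a median log2 fold change of 0.38. An unadjusted p under 0.05 was found for 1 (5.88%), Aurka, which went against most of the list and was named after its values were seen (log2 fold change -0.91, adjusted p = 0.186). Their summed signal was 1149.3, 1159.1 and 576.3 in deficient muscle, against 636.6, 1213 and 435.4 in wild type muscle, with replicate 3 the lowest in both groups. Mki67, a marker of cycling cells, read 193.6, 281.6 and 96 in deficient and 63.8, 226.8 and 71.3 in wild type muscle, with overlap (log2 fold change 0.68, limma adjusted p = 0.46).

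Neuron markers, read beside the neuronal isotypes Tubb2a, Tubb2b and Tubb3, summed to between 112.6 and 137.9 in deficient and between 143.8 and 168.7 in wild type muscle. Of 4 tested, 0 passed by limma and 0 had an unadjusted p under 0.05. Stmn2, a neuronal stathmin gene, read 59.6, 47.6 and 29.9 in deficient and 72.8, 44.4 and 42.9 in wild type muscle. Among 5 Schwann cell and axon markers 0 passed, with 0 at an unadjusted p under 0.05. Pmp22, a myelin gene, read 2729.2, 2342.7 and 2124 in deficient and 2166.1, 1428.4 and 1904.3 in wild type muscle. Among 10 endothelial markers 0 passed, with 1 at an unadjusted p under 0.05 (Emcn, also named after its values were seen, log2 fold change -0.74, adjusted p = 0.141).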
